A study of Mus musculus with 30 samples.

Results

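Sox17, Foxa2, Gata4, Gata6, Dab2, Ttr, Apoe and Pdgfra, a group of genes by which endoderm is commonly recognised, were followed through 30 RNAseq libraries of differentiating mouse embryonic stem cells (ESCs). The 8 genes were chosen by name, because in an earlier look at these counts they were lower in cells lacking Nr6a1 than in wildtype cells, as if a minor endoderm-like population of the wildtype cultures were missing from the mutant ones. They are 8 of the 54134 rows of the count table, and all 8 were among the 12149 genes that passed the filter on low counts. The difference between genotypes in these 8 genes is therefore given as a description, without a test.

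The cells were of the Bruce4 ESC line. Wildtype cells and Nr6a1-/- cells were taken through the same culture, meant to yield neuromesodermal progenitors, the bipotent caudal cells from which spinal cord and trunk mesoderm are made. All cells received FGF2. At d2 they had received nothing else for 48 h, d2.5 and d3 cells had been given the Wnt agonist CHIR99021 from day 2, d4 cells had remained in it for a further day, and d4G cells had received Gdf11 as well for the last 24 h. Each of the 10 groups, 5 stages in 2 genotypes, held 3 libraries. All Nr6a1-/- libraries came from 1 clone with CRISPR/Cas9 deletions in exon 4 of both alleles, so genotype and line cannot be told apart, and although the study's methods call the replicates biological, they do not say what was replicated, so that p-values measure only the spread between these libraries.

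Library totals ran from 1570714 to 3688197 counts with a median of 2366002, and a count of 0 in a library allows a level of up to 0.829 to 1.91 CPM (counts scaled to a fixed library total and by TMM, which corrects for library composition). Reads came from the 3′ ends of transcripts, and the level of Nr6a1 itself (17.2 to 186 CPM in wildtype and 18.8 to 314 CPM in Nr6a1-/- libraries) does not check the labels, since the deleted exon lies away from the 3′ end. Genes of chromosome 8 were low as a block in the Nr6a1-/- line, with a median log2 fold change of -0.38 at d2 and -0.29 at d4 over 655 tested genes. None of the 8 genes lies on that chromosome.

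Endoderm arises more than once in the mouse embryo. Primitive endoderm forms in the blastocyst and gives the parietal and visceral endoderm of the yolk sac, and definitive endoderm leaves the primitive streak at gastrulation and forms the gut. Gata4 and Gata6 encode zinc-finger transcription factors needed for extraembryonic endoderm and heart, Sox17 an HMG-box factor needed for definitive endoderm, and Foxa2 a forkhead factor of endoderm, node and notochord. Dab2 is an endocytic adaptor by which visceral endoderm takes up lipoproteins and other ligands, Ttr carries thyroid hormone and, with Rbp4, retinol, Apoe is a lipoprotein component made by many cell types, and Pdgfra is the receptor for platelet-derived growth factor A in primitive endoderm and also in mesoderm. Most of these genes are also used outside the endoderm.

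The promoters of 4 of these genes were searched for motifs. The search covered 9 windows from RefSeq (GRCm38.p6), for Foxa2, Dab2, Apoe and Pdgfra. Promoters of Sox17, Gata4, Gata6 and Ttr were not searched. The 250 bases before the most upstream RefSeq start are shown for a gene that was low at every stage of the mutant line, one that was not high in any library, and one whose deficit in the mutant line closed by d4G. They are read 5′ to 3′ on the gene's strand, from chr15:6299539-6299788 (Dab2), chr2:148046970-148047219 (Foxa2, minus strand) and chr5:75152001-75152250 (Pdgfra). Capitals mark a match to a GATA motif.
Dab2: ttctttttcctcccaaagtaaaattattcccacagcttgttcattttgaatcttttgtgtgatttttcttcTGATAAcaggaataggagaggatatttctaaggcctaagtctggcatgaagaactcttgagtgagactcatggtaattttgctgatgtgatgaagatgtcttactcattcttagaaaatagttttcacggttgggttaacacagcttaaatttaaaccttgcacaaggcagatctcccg
Foxa2: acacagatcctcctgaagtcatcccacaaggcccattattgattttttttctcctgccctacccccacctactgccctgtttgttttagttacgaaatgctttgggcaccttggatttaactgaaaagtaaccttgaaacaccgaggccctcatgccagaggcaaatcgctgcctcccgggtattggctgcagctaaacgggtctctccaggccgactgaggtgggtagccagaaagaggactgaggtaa
Pdgfra: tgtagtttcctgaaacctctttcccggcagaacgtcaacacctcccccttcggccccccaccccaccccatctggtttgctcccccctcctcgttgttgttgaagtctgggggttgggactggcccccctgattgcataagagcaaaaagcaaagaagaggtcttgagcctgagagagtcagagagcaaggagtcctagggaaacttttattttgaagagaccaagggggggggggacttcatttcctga
The letters AGATAA or AGATAG or TGATAA or TGATAG, searched on both strands as a GATA motif, were found in 3 of the 9 windows, and in 26.5% of 32851 mouse promoter windows of the same length. The match in Dab2 was TGATAA at -179 from the start, and the other matches lay in a window of Foxa2 and a window of Apoe that start further downstream. A forkhead motif (TGTTTAC or TGTTTGC, in 7.29% of all windows), a SOX motif (ATTGTT, 9.42%) and the extended half-site bound by NR6A1 (TCAAGGTCA, 0.387%) had no match in any of the 9 windows. A match is a description of sequence and not a bound site.

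The genes lie apart in the genome (GRCm38, GENCODE M21). Sox17 is at chr1:4490931-4497354 and Foxa2 at chr2:148042877-148046969, both on the minus strand, and Gata4 is at chr14:63198922-63271692, also on the minus strand. Gata6 (chr18:11052064-11085635) and Ttr (chr18:20665280-20674321) share a chromosome and are on the plus strand, as are Dab2 (chr15:6299788-6440712) and Pdgfra (chr5:75152292-75198215). Apoe is at chr7:19696109-19699188 on the minus strand. The annotation places no other gene over the 3′ end of any of them, and the genes that overlap Sox17, Gata6, Dab2 or Pdgfra elsewhere had 0 to 8 counts over all 30 libraries.

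The difference between genotypes was in 1 direction in nearly every gene and stage. Of 40 gene-by-stage comparisons, the fitted level was lower in Nr6a1-/- cells in 39, all 3 wildtype libraries lay above all 3 Nr6a1-/- libraries in 33, and the libraries overlapped in 7. Over the successive stages, 6, 7, 8, 7 and 5 genes were separated in this way, beside 10.8%, 12.7%, 14.3%, 14% and 12.3% of all tested genes. A log2 fold change of -1 or less was found in 7, 6, 6, 6 and 6 of the 8 genes, against 2.49%, 2.38%, 3.79%, 5.48% and 4.82% of all tested genes. The median log2 fold change of the 8 genes was -2.45, -2.50, -1.97, -2.68 and -2.16 in stage order (-2.42 at d2 with Pdgfra set to its bound), beside medians over all tested genes within 0.02 of 0. Since the genes were chosen for this difference, these counts say nothing beyond the choice, and 5 of the 8 (Sox17, Foxa2, Gata4, Gata6 and Ttr) passed the filter through wildtype groups alone. In bulk RNA, fewer cells of a type and less RNA per cell cannot be told apart.

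**Figure D1:**
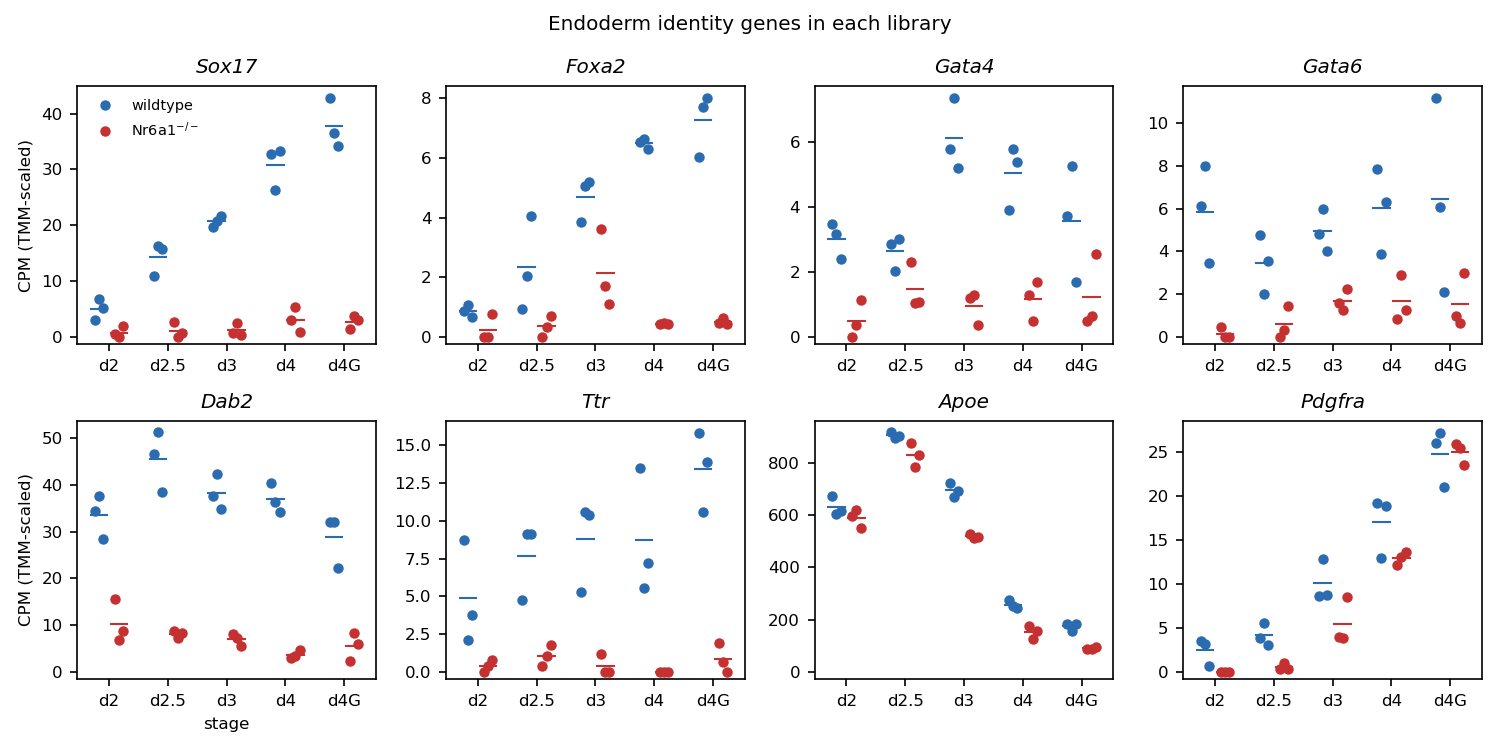
Level of each gene in every library, in TMM-scaled CPM on a linear axis that differs between panels, against stage. Each dot is 1 library (wildtype blue, Nr6a1-/- red) and each short line the mean of 3. Sox17 rises in wildtype from a mean of 5.04 CPM at d2 to 37.8 CPM at d4G and stays at or below 5.32 CPM in every Nr6a1-/- library, Dab2 is separated at all 5 stages, and Pdgfra converges.

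Sox17 rose through the culture in wildtype cells and stayed low in Nr6a1-/- cells. The wildtype libraries held 3.06, 6.90 and 5.16 CPM at d2, 10.96, 16.3 and 15.7 CPM at d2.5, and 19.8, 20.7 and 21.6 CPM at d3. They held 32.7, 26.2 and 33.3 CPM at d4 and 42.8, 36.5 and 34.2 CPM at d4G. The Nr6a1-/- libraries held 0.471, 0 and 1.90 CPM at d2, 2.68, 0 and 0.715 CPM at d2.5, and 0.803, 2.57 and 0.372 CPM at d3. Later they held 3.03, 5.32 and 0.852 CPM at d4, and 1.44, 3.82 and 3.0 CPM at d4G. No Nr6a1-/- library reached the lowest wildtype library of its stage. The log2 fold change was -2.54 (SE 0.668), -3.64 (SE 0.496), -4.05 (SE 0.457), -3.34 (SE 0.358) and -3.79 (SE 0.375) in stage order. In pooled counts, wildtype cells held 17.3 times as much Sox17 RNA at d3 (95% counting interval 8.88 to 38.7) and 10.2 times as much at d4 (6.49 to 16.99). The d2 value rests on few counts, 35 in wildtype and 6 in Nr6a1-/- libraries, and was -4.25 without Nr6a1-/- replicate 3. It was -5.15 at d2.5 without Nr6a1-/- replicate 1, -5.04 at d3 without replicate 2, and at d4 -3.95 without replicate 2.

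Foxa2 had a similar course at lower counts, with one stage at which the genotypes came close. Wildtype libraries held 0.875, 1.06 and 0.688 CPM at d2, 0.953, 2.03 and 4.05 CPM at d2.5 and 3.86, 5.06 and 5.20 CPM at d3. They then held 6.54, 6.63 and 6.30 CPM at d4 and 6.05, 7.71 and 8.01 CPM at d4G. Nr6a1-/- libraries held 0 to 0.759 CPM at d2 and d2.5, and 3.61, 1.71 and 1.12 CPM at d3. They held 0.433, 0.484 and 0.426 CPM at d4 and 0.481, 0.637 and 0.429 CPM at d4G, or 3 counts in all at either of these 2 stages. The gap was thus narrow at d3, where the log2 fold change was -1.13 (SE 0.436), or -1.74 without Nr6a1-/- replicate 1, and wide at d4 (-3.71, SE 0.562) and d4G (-3.73, SE 0.574). At d2 the libraries overlapped, with 6 counts in wildtype and 2 in Nr6a1-/- cells, and without Nr6a1-/- replicate 3 the value there was -4.11 in place of -1.49.

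Gata4 and Gata6 were low throughout. Wildtype Gata4 was 2.41 to 3.50 CPM at d2, 2.03 to 3.04 CPM at d2.5, 5.20 to 7.37 CPM at d3, 3.92 to 5.80 CPM at d4 and 1.69 to 5.28 CPM at d4G, and the Nr6a1-/- libraries were 0 to 2.57 CPM over all stages. Gata4 libraries overlapped at d2.5 and d4G, and its pooled ratio of wildtype to Nr6a1-/- counts was 6.53 at d3 (2.90 to 17.2). Wildtype Gata6 was 3.44 to 7.97 CPM at d2, where the Nr6a1-/- libraries held 1 count in all against 39. At d3 it was 4.0 to 5.98 CPM in the former and 1.28 to 2.23 CPM in the latter, and at d4 3.87 to 7.85 and 0.866 to 2.90 CPM. The log2 fold change of Gata6 was -1.48 (SE 0.579) at d3 and -1.79 (SE 0.559) at d4, and its libraries overlapped at d4G, where wildtype replicate 3 was at 2.11 CPM and Nr6a1-/- replicate 3 at 3.0 CPM. Without Nr6a1-/- replicate 3, the d4G log2 fold changes were -2.60 for Gata4 and -2.88 for Gata6, in place of -1.39 and -1.90. At d2 Gata4 was -2.36, or -3.53 without Nr6a1-/- replicate 3, and Gata6 was -4.92, or -6.77 without Nr6a1-/- replicate 1.

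Dab2 was separated at all 5 stages. Wildtype libraries held 34.5, 37.7 and 28.6 CPM at d2, 46.7, 51.3 and 38.5 CPM at d2.5 and 37.7, 42.4 and 34.8 CPM at d3. They held 40.5, 36.5 and 34.2 CPM at d4 and 32.1, 32.1 and 22.3 CPM at d4G. The Nr6a1-/- libraries held 15.5, 6.74 and 8.72 CPM at d2, 8.82, 7.35 and 8.23 CPM at d2.5, 8.03, 7.27 and 5.58 CPM at d3, 3.03, 3.39 and 4.69 CPM at d4, and 2.40, 8.28 and 6.01 CPM at d4G. No wildtype library was below 22.3 CPM and no Nr6a1-/- library above 15.5 CPM. The log2 fold change was -1.72 (SE 0.225) at d2 and reached -3.29 (SE 0.270) at d4, where wildtype libraries held 9.86 times the RNA (6.57 to 15.5).

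Ttr was detected in every wildtype library and in 8 of the 15 Nr6a1-/- libraries. Wildtype libraries held 8.75, 2.12 and 3.79 CPM at d2, 4.76, 9.15 and 9.11 CPM at d2.5, 5.31, 10.6 and 10.4 CPM at d3, 13.5, 5.53 and 7.20 CPM at d4, and 15.8, 10.6 and 13.9 CPM at d4G. At d4 the 3 Nr6a1-/- libraries held no count against 75 in wildtype, so that wildtype cells held at least 18.2-fold more, with 3 counts taken as the limit over the group. At d4G the Nr6a1-/- libraries held 1.92, 0.637 and 0 CPM, and the log2 fold change was -3.92 (SE 0.627). It was -4.30 (SE 0.730) at d3. Without Nr6a1-/- replicate 1, the only one with counts at d3 and the highest at d4G, these values were -5.44 at d4G and -7.42 at d3.

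Apoe, which is expressed in many cell types, differed from the rest in size and course. It was at 603 to 674 CPM in wildtype and 550 to 618 CPM in Nr6a1-/- libraries at d2, where the groups overlapped, and at 895 to 919 against 784 to 878 CPM at d2.5. Wildtype libraries held 724, 668 and 693 CPM at d3 and 276, 252 and 246 CPM at d4, and Nr6a1-/- libraries held 529, 513 and 516 CPM and then 176, 126 and 155 CPM. The log2 fold change went from -0.10 (SE 0.0828) at d2 to -0.42 (SE 0.0830) at d3, -0.76 (SE 0.0898) at d4 and -0.95 (SE 0.0982) at d4G. The ratio at d4G was 1.92 (1.73 to 2.13), so that Apoe at no stage reached the log2 fold change of -1 that most of the other genes passed.

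Pdgfra had no count in Nr6a1-/- cells at d2 and came within the wildtype range later. At d2 the wildtype libraries held 3.50, 3.19 and 0.688 CPM and the Nr6a1-/- libraries no count, which puts wildtype cells at least 5.60-fold higher. The levels were 3.81, 5.59 and 3.04 CPM against 0.384, 1.05 and 0.358 CPM at d2.5, and 8.69, 12.9 and 8.80 CPM against 4.02, 3.85 and 8.55 CPM at d3. They were 19.2, 13.0 and 18.9 CPM against 12.1, 13.1 and 13.6 CPM at d4, and 26.1, 27.2 and 21.1 CPM against 26.0, 25.5 and 23.6 CPM at d4G. The log2 fold change went from -2.67 (SE 0.611) at d2.5 to -0.85 (SE 0.318) at d3, or -1.35 without Nr6a1-/- replicate 3, then to -0.38 (SE 0.243) at d4 and 0.01 (SE 0.218) at d4G, and the libraries overlapped at d4 and d4G.

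**Figure D2:**
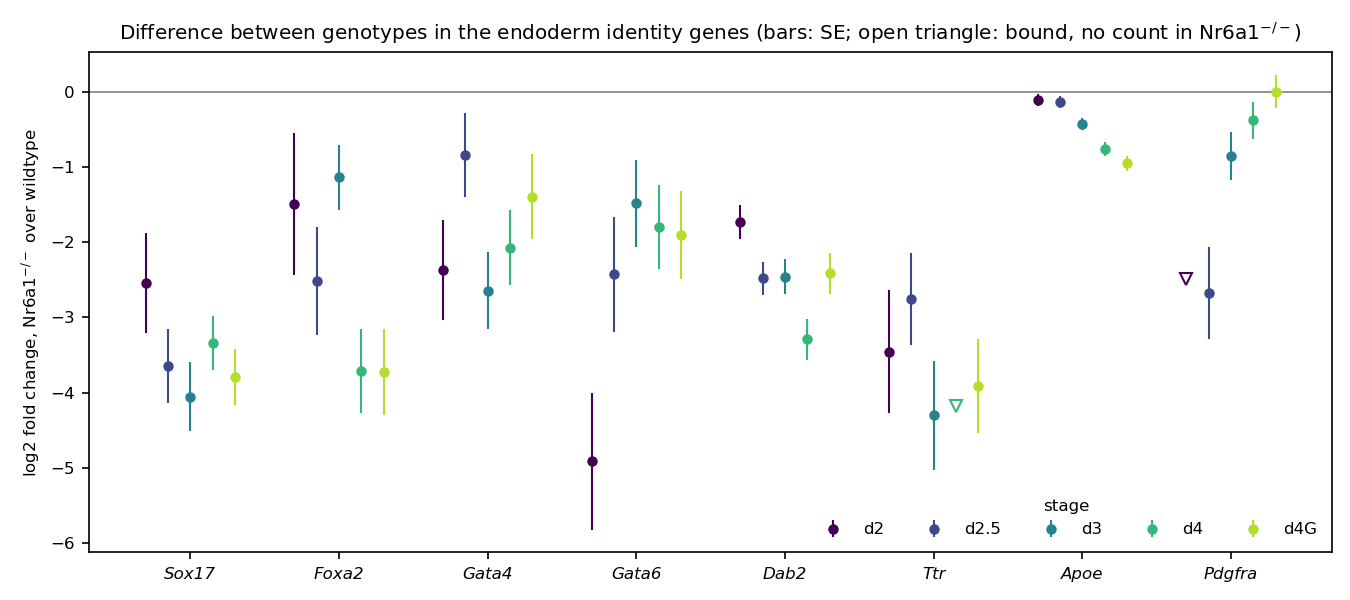
Log2 fold change of each gene, Nr6a1-/- over wildtype, at the 5 stages (colours), with bars for the standard error and open triangles for a bound where the Nr6a1-/- libraries held no count. Apoe moves away from 0 from d2 (-0.10) to d4G (-0.95), while Pdgfra moves towards 0 from d2.5 (-2.67) to d4G (0.01).

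The change from stage to stage within a genotype was not used to choose the genes and was tested. By the sample descriptions, each d4 library carries an index sequence also carried by a d4G or an Nr6a1-/- d3 library. Libraries with the same index cannot have shared a pool, so comparisons of d4 with the other stages, d4G among them, may hold a difference between pools. That difference was not tested. A gene is said to have risen or fallen where edgeR's quasi-likelihood test gave a Benjamini-Hochberg FDR below 0.05 over all 12149 genes. In wildtype cells, 2 of the 8 rose over the first 12 h of CHIR99021, Sox17 by 1.51 on the log2 scale (SE 0.379, edgeR FDR 0.00272) and Apoe by 0.52 (SE 0.0826, edgeR FDR 8.3e-06). Rises were called in 13.3% of all tested genes in that step. From d2.5 to d3, Pdgfra rose by 1.28 (SE 0.357, edgeR FDR 0.015) and Apoe fell by 0.38 (SE 0.0824, edgeR FDR 0.00132), beside 5.91% of genes rising and 5.56% falling. From d3 to d4, Pdgfra rose by 0.73 (SE 0.254, edgeR FDR 0.0363) and Apoe fell by 1.43 (SE 0.0854, edgeR FDR 1.5e-15), beside 9.77% rising and 11.3% falling. Both Pdgfra calls depended on single libraries. The first was lost without d2.5 replicate 1 or 3 or d3 replicate 2 (edgeR FDR 0.0625, 0.0742 and 0.0892), and the second without d3 replicate 1 or 3 or d4 replicate 1 or 3 (edgeR FDR 0.133, 0.153, 0.112 and 0.126).

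Over the whole 2 days from d2 to d4, a comparison added after the values were seen, 3 of the 8 rose in wildtype cells (21.1% of all genes rose) and 1 fell (20.8%). Sox17 rose by 2.61 (SE 0.319, edgeR FDR 1.9e-08), Foxa2 by 2.86 (SE 0.486, edgeR FDR 9.4e-06) and Pdgfra by 2.86 (SE 0.343, edgeR FDR 2e-08), while Apoe fell by 1.29 (SE 0.0853, edgeR FDR 4.4e-15). In wildtype cells, Foxa2 and Pdgfra passed the filter on low counts in 3 groups, d3, d4 and d4G, and not at d2 or d2.5. For these 2 genes the filter thus favoured a rise from the earlier stages. Gata4 (log2 change 0.78, SE 0.407), Gata6 (0.05, SE 0.430), Dab2 (0.15, SE 0.179) and Ttr (0.75, SE 0.436) did not pass the test, and Ttr passed it without d2 replicate 1 (edgeR FDR 0.0316). The 2 GATA factors and the 2 genes of uptake and transport were thus not called over the same time in which Sox17 and Foxa2 rose.

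In Nr6a1-/- cells the calls were mostly of Apoe and Pdgfra. Over the first 12 h only Apoe was called, rising by 0.50 (SE 0.0823, edgeR FDR 1.5e-05), beside 12.9% of all genes. From d2.5 to d3, Foxa2 rose by 2.39 (SE 0.705, edgeR FDR 0.016) and Pdgfra by 3.10 (SE 0.549, edgeR FDR 8.28e-05), where 7.43% of genes rose, and Apoe fell by 0.68 (SE 0.0826, edgeR FDR 9.06e-08), where 8.45% fell. From d3 to d4, Pdgfra rose again by 1.21 (SE 0.304, edgeR FDR 0.00284), where 13.6% of genes rose, and Foxa2 fell by 2.13 (SE 0.720, edgeR FDR 0.0258) and Apoe by 1.77 (SE 0.0895, edgeR FDR 1.2e-17), where 12.3% fell. Foxa2 thus rose for the d3 sample and was back at 3 counts a day later. Its rise was lost without d2.5 replicate 1 or 2 or d3 replicate 1 (edgeR FDR 0.0801, 0.0508 and 0.177). Its fall was lost without d3 replicate 1 or any 1 of the d4 replicates (edgeR FDR 0.221, 0.0587, 0.0579 and 0.0748).

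From d2 to d4, 2 of the 8 fell in Nr6a1-/- cells, Dab2 (log2 change -1.42, SE 0.346, edgeR FDR 0.000867) and Apoe (-1.95, SE 0.0896, edgeR FDR 8.8e-20), beside 22.4% of all genes falling. Pdgfra went from 0 to 87 counts, a rise of at least 32.1-fold, beside 25.4% of all genes rising. Rises of Sox17 (1.82, SE 0.756, edgeR FDR 0.0454) and Gata6 (3.18, SE 1.20, edgeR FDR 0.0274) started from 6 and 1 counts. The Sox17 rise was lost without d2 replicate 1 or 2 or d4 replicate 1 or 2 (edgeR FDR 0.116, 0.208, 0.0824 and 0.295). The Gata6 rise was lost without d2 replicate 2 or 3 or d4 replicate 2 (edgeR FDR 0.0964, 0.0947 and 0.139). Whether these changes differed between the genotypes was not tested, because that difference rests on the contrast by which the genes were chosen.

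Few of the 8 genes were called in response to Gdf11, a TGF-beta family ligand. Between d4 and d4G, wildtype Apoe fell by 0.57 (SE 0.0888, edgeR FDR 6.3e-06), where 14.5% of genes fell, and none of the 8 rose, where 14.3% did. Pdgfra (log2 change 0.56, SE 0.217, edgeR FDR 0.0507) and Ttr (0.68, SE 0.367, edgeR FDR 0.17) did not pass. Pdgfra did without d4 replicate 1 (edgeR FDR 0.0476) or d4G replicate 3 (0.0412), and Ttr without d4 replicate 1 (0.047). In Nr6a1-/- cells, Apoe fell by 0.76 (SE 0.0992, edgeR FDR 2.7e-07) and Pdgfra rose by 0.94 (SE 0.243, edgeR FDR 0.00487), beside 9.59% of genes falling and 8.45% rising. Sox17, Foxa2, Gata4, Gata6 and Dab2 were not called in either genotype. In Nr6a1-/- cells the first 4 held few pooled counts at d4 and d4G, so a response there could be missed. They were 20 and 16 for Sox17, 3 and 3 for Foxa2, 8 and 8 for Gata4, and 11 and 10 for Gata6. The test of whether the response itself differed between genotypes called 1.17% of all tested genes in one direction and 1.49% in the other, and was not read for the 8.

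Other endoderm genes, which were not among the 8, were then tested between genotypes. They were 55 genes in 4 lists, and 41 of them passed the filter. These lists, and those of the paragraphs below, were drawn up with earlier results of these data known. The calls and counts are therefore not independent of the data. The number lower in Nr6a1-/- cells (edgeR FDR below 0.05) was 10, 17, 22, 21 and 18 in stage order, beside 2.72%, 3.59%, 6.3%, 9.18% and 4.63% of all tested genes. The number higher was 3, 3, 1, 4 and 2, beside 1.35%, 2.86%, 4.47%, 9.7% and 3.28%. These shares of all tested genes also stand beside the counts of the single lists below, where 1 call in a small list can lie near them. The median log2 fold change of the 41 was -0.68, -0.65, -1.13, -1.57 and -0.90, and that of all tested genes lay within 0.02 of 0 at each stage. For a gene that passes the filter in wildtype groups alone, the filter favours a lower level in the mutant line, and 7 of the 41 passed so. Another 1 passed in Nr6a1-/- groups alone, where the filter favours the opposite. Of the 33 that passed in both genotypes, 9, 13, 18, 16 and 15 were lower and 3, 2, 1, 4 and 1 higher. The matching share, among all genes that passed in both genotypes, was not computed. Of the 37 not on chromosome 8, 8, 14, 19, 18 and 14 were lower.

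**Figure D3:**
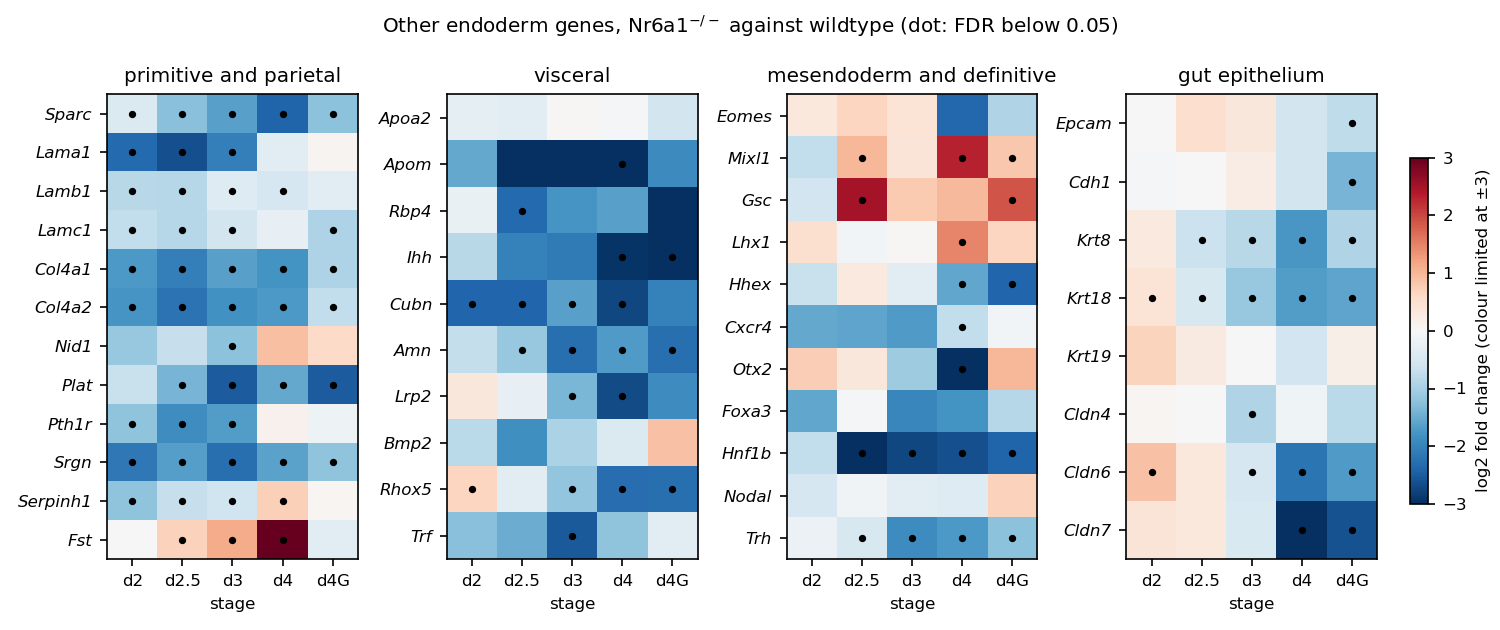
Log2 fold change, Nr6a1-/- over wildtype, of 41 other endoderm genes (rows, in 4 lists) at 5 stages (columns), with colour limited at 3 in either direction and a dot where the edgeR FDR was below 0.05. Dots fill the early columns of the primitive and parietal list (9 of 12 genes lower at d2) and the late columns of the gut epithelium list (6 of 8 lower at d4G).

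The list of primitive and parietal endoderm genes holds mostly basement membrane and other matrix proteins, and most of its tested genes were lower from the start. Which cells of these cultures made them was not tested. Of the 12 tested, 9, 10, 11, 6 and 6 were lower and 0, 1, 1, 2 and 0 higher in stage order. The laminin chain Lama1 went from 29.3 CPM in wildtype to 5.78 CPM in mutant cells at d2 (log2 fold change -2.33, SE 0.224, edgeR FDR 4.5e-09), and it was lower at d2.5 (-2.63) and d3 (-2.04) but not called at d4 or d4G. The proteoglycan Srgn was lower at all 5 stages, by -2.15 at d2 (SE 0.226, edgeR FDR 3.5e-08), -2.26 at d3 and -1.21 at d4G. Sparc, a matrix glycoprotein secreted by parietal endoderm, fell furthest at d4, from 171 to 32.3 CPM (-2.41, SE 0.130, edgeR FDR 7.2e-17). Col4a1 and Col4a2, the collagen IV chains, were lower at all 5 stages, at d2.5 by -2.06 (SE 0.135, edgeR FDR 2.1e-13) and -2.21 (SE 0.175, edgeR FDR 2.5e-11), and lie on chromosome 8. Pth1r, the parathyroid hormone receptor, was lower at d2 (-1.20), d2.5 (-1.86) and d3 (-1.67). Fst, which encodes the activin antagonist follistatin and is also expressed in somites, went the other way at d2.5 (0.70), d3 (1.12) and d4, the last from 7.33 to 62.5 CPM (3.05, SE 0.156, edgeR FDR 2e-17). Serpinh1, a collagen chaperone, was lower at d2, d2.5 and d3 and higher at d4 (0.71, SE 0.109, edgeR FDR 6.03e-06).

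The visceral endoderm list holds genes of lipoprotein and nutrient handling. Of the 10 tested, 1, 3, 5, 6 and 3 were lower at the successive stages, and 1 was higher, at d2. The homeobox gene Rhox5 was higher in Nr6a1-/- cells at d2 (128 against 81.0 CPM, log2 fold change 0.65, SE 0.128, edgeR FDR 0.00106) and lower from d3 (-1.18, SE 0.130, edgeR FDR 2.6e-08) to d4 (-2.29, SE 0.140, edgeR FDR 2.4e-15) and d4G (-2.27, SE 0.159, edgeR FDR 2e-13). Amn, a partner of Cubn in the receptor for vitamin B12 uptake, was lower at d3 (12.8 against 2.66 CPM, -2.25, SE 0.362, edgeR FDR 3.1e-05) and d4G (-2.26, SE 0.402, edgeR FDR 0.000131). Lrp2, the endocytic receptor megalin, for which Dab2 is an adaptor, was lower at d4 (-2.69, SE 0.520, edgeR FDR 0.000196) and d3 (-1.36, SE 0.369, edgeR FDR 0.0119), a d3 call lost without wildtype replicate 3 or Nr6a1-/- replicate 1 or 2 (edgeR FDR 0.0727, 0.0655 and 0.0589). Cubn itself was lower at d2, d2.5, d3 and d4, with a mean of at most 8.19 CPM in wildtype cells. Apoa2, an apolipoprotein and the most abundant lipoprotein gene of the list, was not called at any stage, with 35.7 against 36.6 CPM at d3 and 18.7 against 17.9 CPM at d4 (wildtype first). Bmp2 at d4G (5.20 against 9.81 CPM) and Lrp2 at d2 (51.2 against 65.0 CPM) had higher means in Nr6a1-/- cells and did not pass the test.

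Mesendoderm and definitive endoderm genes were mixed. Of the 11 tested, 0, 2, 2, 5 and 3 were lower and 0, 2, 0, 2 and 2 higher. Trh, the precursor of thyrotropin-releasing hormone, was lower at d2.5 (-0.47, SE 0.101, edgeR FDR 0.00221), d3 (62.9 against 17.1 CPM, -1.88, SE 0.146, edgeR FDR 7.9e-12) and d4 (-1.72, SE 0.278, edgeR FDR 1.3e-05), and at d4G by -1.24 (edgeR FDR 0.0424). Mixl1 and Gsc, homeobox genes of the primitive streak, were higher, Mixl1 at d2.5 (0.99, SE 0.195, edgeR FDR 0.000932), d4 (116 against 22.7 CPM, 2.31, SE 0.212, edgeR FDR 1.1e-10) and d4G (0.80, SE 0.173, edgeR FDR 0.0016), and Gsc at d2.5 (2.49, SE 0.638, edgeR FDR 0.0122, 3.0 against 0.497 CPM) and d4G (1.88, SE 0.316, edgeR FDR 5.2e-05). Lhx1 was higher at d4 (1.47, SE 0.383, edgeR FDR 0.00512). Cxcr4, a chemokine receptor of definitive endoderm and mesoderm, was lower at d4 (-0.75, SE 0.235, edgeR FDR 0.0226), a call lost without wildtype replicate 3 or Nr6a1-/- replicate 1 or 3 (edgeR FDR 0.205, 0.0681 and 0.062).

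The gut epithelium list holds, among others, Epcam, Cdh1, keratins and tight junction claudins that many epithelia share. Of the 8 tested, 2 were higher and 0 lower at d2, and 2, 4, 4 and 6 were lower and 0 higher afterwards. Cldn6 and Krt18 were the 2 called higher at d2. Cldn6 was higher at d2 (100 against 54.3 CPM, 0.88, SE 0.135, edgeR FDR 3e-05) and lower at d3 (-0.51, SE 0.161, edgeR FDR 0.0359), d4 (6.79 against 31.4 CPM, -2.19, SE 0.217, edgeR FDR 7.1e-10) and d4G (-1.69, SE 0.245, edgeR FDR 4.7e-06). Its d3 call was lost without any 1 of 5 libraries, wildtype replicate 1 or 3 or an Nr6a1-/- replicate (edgeR FDR 0.0675 to 0.288). Krt18 was also higher at d2 (0.41, SE 0.102, edgeR FDR 0.0146) and lower at d2.5 (-0.49), d3 (-1.13, SE 0.105, edgeR FDR 6.3e-10), d4 (-1.69, SE 0.120, edgeR FDR 1.5e-13) and d4G (-1.57, SE 0.121, edgeR FDR 2.4e-12). The d2 call of Krt18 was lost without wildtype replicate 2 or Nr6a1-/- replicate 1 or 2 (edgeR FDR 0.0605, 0.0507 and 0.0877), and the d2.5 call without Nr6a1-/- replicate 2 (edgeR FDR 0.0601). Cldn7 had the largest difference of the named genes of this list, from 22.6 to 2.83 CPM at d4 (-3.01, SE 0.295, edgeR FDR 5.35e-10) and from 12.5 to 1.98 CPM at d4G (-2.61, SE 0.384, edgeR FDR 6.6e-06). Epcam had higher means in Nr6a1-/- cells at d2.5 (539 against 382 CPM) and d3 (297 against 232 CPM) and was not called higher. Its means were lower at d4 (65.9 against 95.4 CPM) and d4G (40.6 against 68.6 CPM). Cdh1, on chromosome 8, had a mean of 145 CPM in both genotypes at d2.5 and was lower at d4G (-1.39, SE 0.334, edgeR FDR 0.00487).

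The remaining 14 endoderm genes did not pass the filter and have no test. Over all libraries of a genotype they summed to 313 counts in wildtype and 133 in Nr6a1-/- cells, of 36407880 and 36186360 counts in all. Of these genes 10 had more counts in wildtype, among them Hnf4a, a nuclear receptor of visceral endoderm and liver (36 against 1), Sox7, a primitive endoderm relative of Sox17 (82 against 18), and Foxa1 (17 against 4). Vil1 had more in Nr6a1-/- cells (45 against 19). Cer1, Apoc2 and Shh had no count in any library and Afp, the main secreted protein of visceral endoderm, had 3 counts in wildtype and 0 in Nr6a1-/- cells. At this depth Cer1, Apoc2 and Shh were thus not detected and Afp was barely so, and bulk libraries do not show whether the RNAs came from the same cells.

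Partners and relatives of the 8 genes were compared too. Of 15 listed, 10 were tested, and 0, 2, 2, 0 and 3 were lower and 0, 0, 1, 3 and 2 higher in stage order. Of all tested genes, 2.72%, 3.59%, 6.3%, 9.18% and 4.63% were lower and 1.35%, 2.86%, 4.47%, 9.7% and 3.28% higher. Pdgfa, the ligand of Pdgfra, was lower at d3 (88.0 against 62.1 CPM, -0.50, SE 0.108, edgeR FDR 0.00165) and at d4G (41.0 against 19.6 CPM, -1.06, SE 0.146, edgeR FDR 1.8e-06), where the libraries of the 2 genotypes overlapped in Pdgfra. Pdgfc, another ligand, was lower at d4G (-0.99, SE 0.248, edgeR FDR 0.00685, or 0.0598 by DESeq2). The Apoe receptors Lrp8 and Vldlr were higher at d4 (Vldlr lower at d2.5, by -1.08, a call lost without wildtype replicate 2 or Nr6a1-/- replicate 1), by 0.91 (SE 0.149, edgeR FDR 1.7e-05) and 1.24 (SE 0.205, edgeR FDR 1.8e-05), and Lrp1 at d4G by 0.86 (SE 0.206, edgeR FDR 0.00502). Stra6, which takes up retinol from its plasma carrier, was lower at d3 (-1.25, SE 0.187, edgeR FDR 9.5e-06) and higher at d4 (0.78, SE 0.141, edgeR FDR 7.9e-05).

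Markers of other cell types also moved between the genotypes, as did many genes outside the lists. At d4, for instance, 9.7% of all tested genes were higher and 9.18% lower in Nr6a1-/- cells. The summed level of 8 paraxial mesoderm genes was 242 to 291 CPM in wildtype and 671 to 701 CPM in Nr6a1-/- libraries at d4, and 159 to 188 against 289 to 316 CPM at d4G, with 6 of 7 tested genes higher at d4, 3 at d4G and 1 at d3, and 1 lower at d2. Meox1, of newly formed somites, went from 4.05 to 201 CPM at d4 (5.67, SE 0.208, edgeR FDR 3.6e-20). The sum of 6 pluripotency genes was lower in Nr6a1-/- cells at every stage, 467 to 522 against 288 to 293 CPM at d2 and 85.3 to 100 against 42.6 to 53.7 CPM at d4, with 1, 3, 4, 3 and 2 of 6 lower and 0, 1, 1, 0 and 0 higher. Most of that sum was Dppa5a (427 against 233 CPM at d2). Pou5f1, a core pluripotency factor, was higher in Nr6a1-/- cells at d3 (20.7 against 7.05 CPM, 1.56, SE 0.271, edgeR FDR 9.74e-05) and at d2.5 (0.82, SE 0.232, edgeR FDR 0.0264), a d2.5 call lost without any 1 of the wildtype replicates or Nr6a1-/- replicate 1 or 3 (edgeR FDR 0.062 to 0.13), and Nanog was not called at any stage. The ESCs were grown on feeder fibroblasts, which were depleted before differentiation, and the sum of 7 fibroblast genes was 16.5 to 22.7 against 33.4 to 39.1 CPM at d2 and 25.7 to 29.6 against 17.04 to 23.0 CPM at d4. Of the 4 fibroblast genes tested, 0, 0, 1, 0 and 0 were higher and 0, 0, 1, 1 and 1 lower, and Lum was at 0 in 9 of the 10 groups. The sum of 10 cardiac and lateral mesoderm genes, which share Gata4 and Gata6, overlapped at 30.2 to 70.0 and 27.0 to 60.1 CPM at d4G, with 1 lower at d3 and 2 lower and 1 higher at d4 of 3 tested. Of 5 notochord genes, which share Foxa2, only T was tested, higher at d3 (0.71, SE 0.0945, edgeR FDR 1.4e-06) and d4 (0.69, SE 0.107, edgeR FDR 6.2e-06) and lower at d4G (-0.53, SE 0.107, edgeR FDR 0.00066), and Noto was at 0 in 7 of the 10 groups. The part of these cell types in the levels of the 8 genes was not tested.

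**Figure D4:**
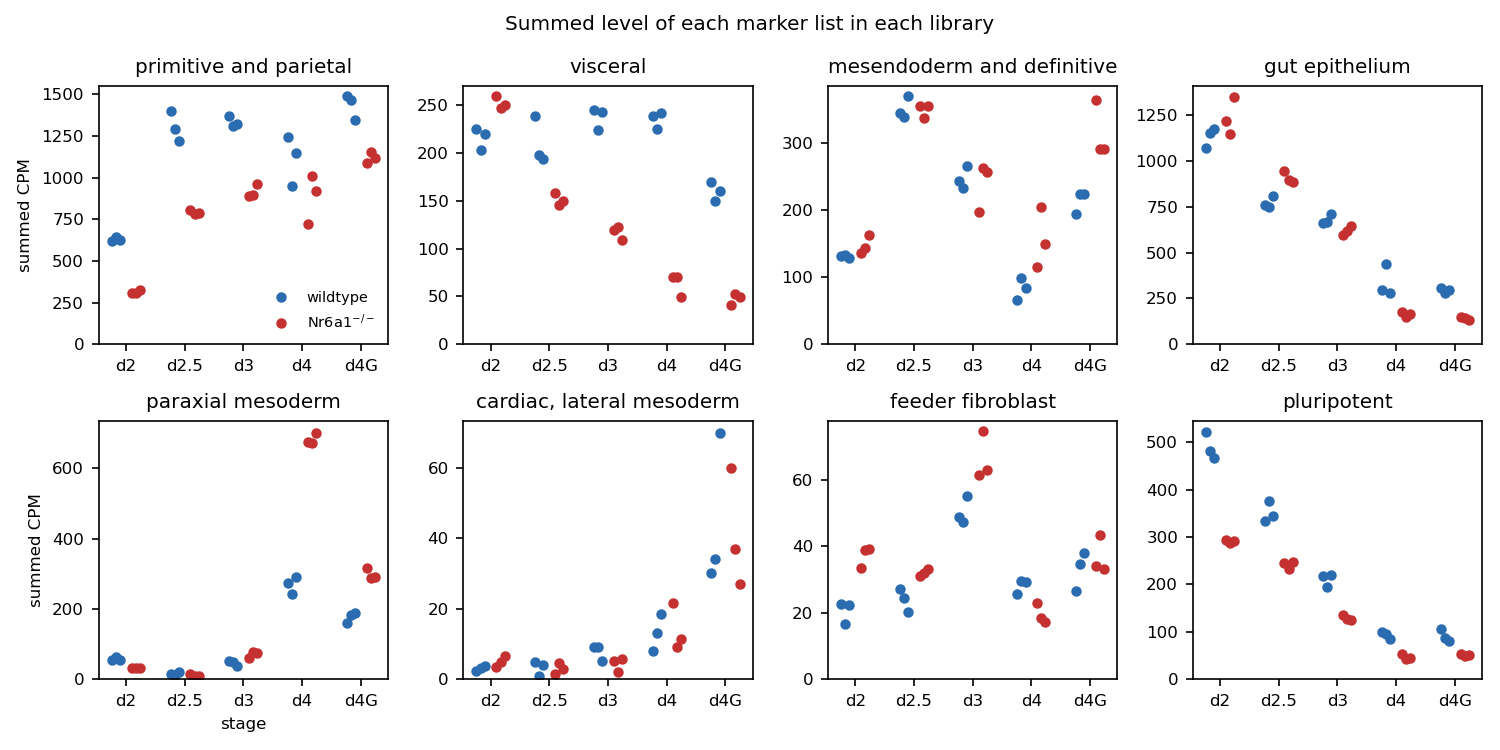
Summed TMM-scaled CPM of each marker list (panels, linear axes from 0) in every library (wildtype blue, Nr6a1-/- red) against stage. The primitive and parietal endoderm sum is lower in Nr6a1-/- cells at d2 (306 to 324 against 619 to 645 CPM). The visceral sum, of which Rhox5 alone makes 173 CPM in wildtype at d4, is above wildtype at d2 (246 to 259 against 203 to 225 CPM) and below it from d2.5 on. The mesendoderm and definitive sum is above wildtype at d4 (116 to 204 against 65.8 to 99.5 CPM) and d4G (290 to 365 against 194 to 225 CPM). The gut epithelium sum is above wildtype at d2.5 (885 to 945 against 746 to 809 CPM) and below it at d4 (146 to 174 against 280 to 439 CPM). The paraxial mesoderm sum is above wildtype at d4 (671 to 701 against 242 to 291 CPM).

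The 8 genes were also compared with each other and with the rest of the transcriptome by the Pearson correlation of log2(CPM + 1) over the 30 libraries, which share genotype, stage and, in part, library depth. These values carry the difference between genotypes by which the genes were chosen. Among Sox17, Foxa2, Gata4, Gata6, Dab2 and Ttr, r ran from 0.65 (Foxa2 with Dab2) to 0.84 (Sox17 with Foxa2, and Dab2 with Ttr), and Apoe with Pdgfra gave -0.75. Once the group means were taken out, the 15 wildtype libraries gave r from -0.30 (Foxa2 with Dab2) to 0.65 (Gata6 with Dab2) among the same 6 genes. Gata4 kept 0.59 with Gata6 and 0.50 with Dab2, and every other pair of the 6 was at 0.34 (Sox17 with Foxa2) or lower, with -0.18 for Sox17 with Ttr. Among these 6 genes the high values between replicates were thus those of Gata4, Gata6 and Dab2. Of the pairs with the remaining genes, Pdgfra gave 0.71 with Dab2 and 0.47 with Gata6. Apoe gave 0.47 with Ttr and -0.56 with Gata4. Low counts in several of these genes limit what a low r can show. The genes most like Dab2 were Dpp4 (r = 0.94), a peptidase of the cell surface, and Spink1 (r = 0.93), a trypsin inhibitor, which were also the most like Ttr (r = 0.88 and 0.87). At d4, Dpp4 stood at 36.5 and 0.876 CPM and Spink1 at 86.2 and 1.47 CPM (wildtype first). The genes most like Sox17 were Arl4a (r = 0.90), Lgmn (0.89) and Hsbp1 (0.89), those most like Foxa2 were S100g (0.88), Hsbp1 (0.87) and Ctsh (0.86), and Crip2 was most like Apoe (0.97) and Fads1 most like Pdgfra (0.94).

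Several of the like genes lie on chromosome 8. Of the 20 genes named by the rule over the 8, 9 do, on a chromosome that holds 5.45% of the tested genes with a position, and all 3 for Gata6 (Tecr, Ndufb7 and Dnaja2, r = 0.86, 0.83 and 0.81) are among them. Over the 15 wildtype libraries alone, a choice made after the values were seen, 2 of 24 lie there, and Crip2 with Apoe (r = 0.98) is the pair common to both. Within wildtype cells, Notum, a secreted Wnt inhibitor, was most like Sox17 (r = 0.99), the Hox cluster gene Hoxb5 was among those most like Foxa2 (r = 0.96), and Wnt5a was most like Pdgfra (r = 0.98).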

How the data were processed

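RNA of 30 libraries was counted by the authors per gene, and the deposited table holds whole-number counts, not normalised and with replicates kept apart. Libraries were made from the 3′ ends of polyadenylated RNA. The submitters' processing notes name STAR, edgeR and the mm10 genome, while versions, use of strand and collapsing of molecular identifiers are not given in the sources used here, so counting intervals cover counting error only. The authors' tables of genes that differ between genotypes hold CPM, fold changes and p-values and were not used.

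The filter kept 12149 of 54134 rows (at least 99.2% of each library's counts), those in which 2 or more libraries of 1 group exceeded both 10 counts and 2 CPM. The fit was 1 edgeR model (version 4.0.16, R 4.3.3) of all 10 groups, with TMM scaling and 20 residual degrees of freedom. Contrasts were tested 2-sided with glmQLFit and glmQLFTest, and a call is an FDR (Benjamini-Hochberg) under 0.05. The SE was taken as |log2 fold change|/√F. CPM is TMM-scaled. Ratios are of pooled counts with exact 95% intervals, and a group without a count was set to 3 counts. Replicates were compared by chi-square per gene (1.29 to 4.28 over 30 pairs, none with the same counts). The fit was tested on simulated data.

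Named genes are the 8, up to 4 per list and stage with the largest called change, at least 10 CPM in 1 group and no overlap between genotypes, 3 per gene for likeness, list genes given with values, and list genes called in the Gdf11 interaction. The genes and lists were chosen with earlier results of these data known. The alternatives were RLE factors, no normalisation factors, no filter, DESeq2 1.42.0, the groups compared alone, a replicate block and leaving out each replicate. Comparing d4 with d2 and likeness within wildtype were added after the data were seen.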

Additional observations from a re-analysis of the deposited data

Results flagged for a closer look

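The response to Gdf11 (d4G against d4) differed between the genotypes in 8 genes of the lists, by edgeR's test of the interaction, which called 1.17% of all tested genes as higher and 1.49% as lower in Nr6a1-/- cells. The test covered all tested genes but was not read for the 8 endoderm identity genes, because it rests on the contrast by which they were chosen. The difference of the log2 responses, Nr6a1-/- minus wildtype, was 0.87 for Col4a1 (SE 0.172, edgeR FDR 0.00176), 0.99 for Col4a2 (SE 0.212, edgeR FDR 0.00409) and 1.18 for Sparc (SE 0.181, edgeR FDR 5.2e-05). These basement membrane genes rose with Gdf11 in Nr6a1-/- cells, by 1.02, 1.03 and 1.01, and their wildtype log2 responses were 0.15, 0.04 and -0.17. The difference was -3.40 for Fst (SE 0.211, edgeR FDR 8.1e-14), which rose by 2.48 in wildtype and fell by 0.92 in Nr6a1-/- cells, and -1.51 for Mixl1 (SE 0.276, edgeR FDR 0.00064), which rose in both, by 2.53 and 1.02. It was -1.21 for Pdgfa (SE 0.184, edgeR FDR 4.8e-05), which fell in both, by 0.49 and 1.70, and -1.22 for T (SE 0.151, edgeR FDR 1.5e-06), with responses of 0.94 and -0.28. For Serpinh1, a collagen chaperone, it was -0.66 (SE 0.153, edgeR FDR 0.0104), and this call was lost without wildtype d4 replicate 2 or Nr6a1-/- d4 replicate 2 (edgeR FDR 0.0573 and 0.0812).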

How the results depend on the processing

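No result reversed under any alternative. With the groups compared fitted alone, fewer genes passed the filter, and 5 endoderm genes were higher at d2 (3 as reported) and 3 at d3 (1 as reported), where fitting without a filter gave 4. In that fit the members with a log2 fold change of -1 or less were 4 at d2 and 3 at d2.5, and the members called were 2 for Gdf11 in wildtype (1 as reported), 1 from d2.5 to d3 in Nr6a1-/- cells (3 as reported) and 3 from d2 to d4 in Nr6a1-/- cells (5 as reported). Without normalisation factors, 2 were called for Gdf11 in wildtype and 1 from d3 to d4 in wildtype, as with DESeq2 (2 as reported). Leaving out 1 library gave 7 to 9 endoderm genes lower at d2, 13 to 17 at d2.5, 16 to 20 at d3, 17 to 21 at d4 and 16 to 18 at d4G, 2 to 3 higher at d2 and at d2.5, and 7 to 13 list genes in the Gdf11 interaction. Members called ranged from 2 to 3 (d2 to d2.5), 1 to 2 (d2.5 to d3), 1 to 2 (d3 to d4), 1 to 3 (Gdf11) and 4 to 5 (d2 to d4) in wildtype, and 2 to 3, 2 to 3 and 3 to 5 in Nr6a1-/- cells (d2.5 to d3, d3 to d4, d2 to d4). Members with a log2 fold change of -1 or less ranged from 6 to 7 at d2 and d2.5 and from 5 to 7 at d4G. Libraries of the 2 genotypes at the same stage with the same replicate number did not deviate together (correlations of -0.114 to 0.0577 over 15 pairs, 4 of 15 wildtype libraries closest to their own number). The numbers thus showed no pairing between the genotypes within a stage. Whether they link libraries of different stages was not examined. A fit with the replicate number as a block left each of these counts as it was, with 22 endoderm genes lower at d3. Depth limits Foxa2, Gata4, Gata6, Ttr and early Pdgfra, for which an Nr6a1-/- library often held 0 to 3 counts.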
